A study of Mus musculus with 18 samples.

Results

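The genes described here are 47 genes of DNA replication and nucleotide supply, chosen by name from the steps of the process and measured among 23102 genes in all. The choice was made with earlier results of these data known. RNA of J774 cells, an established mouse macrophage line, was hybridised to 18 Affymetrix arrays that fall into 6 groups of 3. The groups, each after 24 h in a 24-well plate, were talc, talc plus estradiol, titanium dioxide (TiO2), TiO2 plus estradiol, estradiol alone, and vehicle alone. Particles were given at 10 µg per well and 17-β estradiol, the main oestrogen, at 2 µg/mL, all in one cell line and in medium free of phenol red, a dye with weak oestrogenic activity. The comparisons ask what talc does to these genes, whether TiO2, a second mineral particle at the same mass per well, does the same, and whether estradiol alters either. Nothing in the labels says that replicate arrays stem from different cultures, and p-values therefore reflect the spread between these arrays, which may be technical. The labels number the arrays through the groups in turn, so array order and treatment cannot be told apart.

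Values are log2 intensities averaged over the probe sets of a gene, so 1 unit is a doubling of intensity. Together the 47 genes had 756 probe sets and each gene lay above the median level of all genes. Changes are differences of group means with their standard error (SE) from a limma model over the 18 arrays. The threshold for a call was an adjusted p of 0.05 (Benjamini-Hochberg, across the 23102 genes). The macrophage label was checked on 11 markers, whose mean log2 intensity was 9.66 in talc and 9.87 in vehicle cells. Of these markers Mrc1, Adgre1 and Itgam fell with talc (-1.62, -0.79 and -0.57) and Msr1 rose (0.49). Markers of fibroblasts, epithelial cells, lymphocytes and granulocytes, 25 in all, had list means of 3.52 to 4.59 in talc and 3.54 to 4.56 in vehicle cells, and Pdgfra alone of them passed (-0.67 ± 0.16, adjusted p = 0.0124). The part of these marker shifts in the results below was not tested.

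J774 cells come from a tumour and divide continuously in culture, so a part of the cells is copying its DNA at any time. Before S phase, the origin recognition complex, Cdc6 and Cdt1 load the ring of Mcm2 to Mcm7 onto DNA, a step called licensing, and geminin (Gmnn) then blocks Cdt1. Cdc45 and the GINS complex join the ring to form the active helicase, and polymerase alpha with primase starts strands that polymerases epsilon and delta extend, held by the PCNA clamp. Deoxynucleotides come from ribonucleotide reductase and thymidylate enzymes, and many genes of this set are classic targets of E2F factors, which act at the passage from G1 into S phase.

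With talc, most of the 47 genes were called lower. Against vehicle, 31 of the 47 genes fell and none rose, while 4.52% of all 23102 genes fell and 3.94% rose. Among genes above the median level 8.64% fell. The median log2 change of the 47 was -0.55, against 0.018 over all genes, and each of the 47 estimates was below 0. In cells that also received estradiol, 25 of the 47 fell with talc and none rose (median -0.42), against a background of 3% of all genes called lower, 4.13% called higher, and 5.47% called lower among genes above the median level. That count of 25 became 14 when a gene's value was the median of its probe sets. The share of all genes called at that setting is not given here. The 3 talc arrays lay wholly below the 3 vehicle arrays in 40 of the 47 genes, against 12.6% of all genes, and talc plus estradiol lay wholly below estradiol in 41, against 12%. At the level of single probe sets, 686 of the 756 (90.7%) had a lower mean in talc than in vehicle cells, while 49.6% of all probe sets did; in the estradiol arm the counts were 678 (89.7%) and 50.1%. The 3 talc arrays had means over the 47 genes of 7.58 to 7.68 and the talc plus estradiol arrays of 7.68 to 7.74, below the 8.15 to 8.23 of TiO2, the 8.02 to 8.08 of TiO2 plus estradiol, the 8.09 to 8.18 of estradiol and the 8.08 to 8.23 of vehicle. The 6 talc-treated arrays did not overlap with the other 12 in this mean. In RNA from a whole culture, a smaller share of cells in S phase and less of each transcript per cell cannot be told apart.

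**Figure D1:**
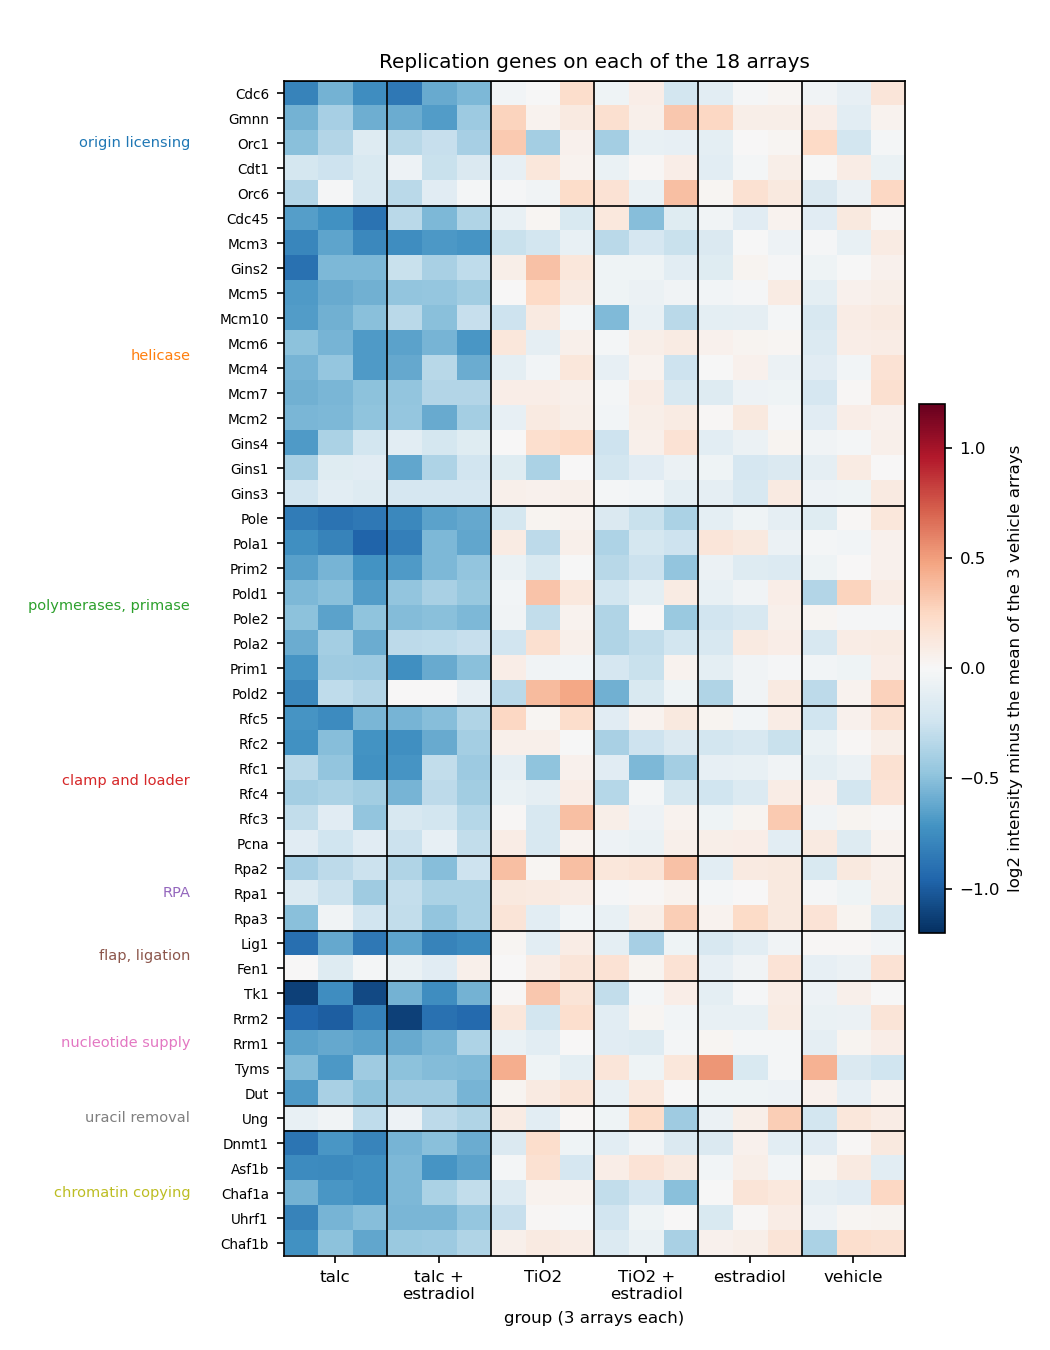
Each of the 47 genes (rows, grouped by replication step) on each of the 18 arrays (columns, 3 per group), as log2 intensity minus the mean of the 3 vehicle arrays; blue is lower and red higher. The talc and talc plus estradiol columns are blue in most rows, and the other 4 groups are pale.

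Of the 47, 23 were called in both arms. That is 74.2% of the 31 called against vehicle and 92.0% of the 25 called against estradiol. The share of all genes called in both arms is not given here, so this overlap has no background to be read against. Cdc45, Gins2, Gins4, Mcm10, Mcm7, Pola2, Pold1 and Pole2 were called against vehicle only, Rpa1 and Rpa3 in the estradiol arm only, and 14 genes in neither. None of the 47 passed the test of the difference between the arms, the interaction of talc with estradiol, so these lists do not show that the arms differ. Called falls ran from -0.43 (Gins4) to -0.98 (Tk1) against vehicle, and from -0.35 (Rfc2) to -0.96 (Rrm2) in the estradiol arm.

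Promoter windows, 250 bases before to 50 after the start of a transcript, were taken from RefSeq (GRCm38.p6). They were matched by symbol for 39 of the 47 genes; Gmnn, Mcm4, Gins1, Gins2, Gins4, Prim2, Pole and Rfc2 were not matched. The windows were searched on both strands for 4 exact E2F words, TTTCCCGC, TTTGGCGC, TTTCGCGC and TTTGCCGC, and for CCAAT, the box bound by NF-Y. The sequences below come from helicase genes with an E2F word, which is in capitals, and show words before the start (Mcm6, Mcm5, Gins3) and after it (Mcm3). They are written along the gene's strand.
Mcm6, chr1:128359706-128359905, minus strand: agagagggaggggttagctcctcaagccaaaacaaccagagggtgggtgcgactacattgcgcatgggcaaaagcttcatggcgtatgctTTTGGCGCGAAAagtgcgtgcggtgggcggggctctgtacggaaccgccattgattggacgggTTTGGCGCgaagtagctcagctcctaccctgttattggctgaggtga
Mcm5, chr8:75109309-75109467, plus strand: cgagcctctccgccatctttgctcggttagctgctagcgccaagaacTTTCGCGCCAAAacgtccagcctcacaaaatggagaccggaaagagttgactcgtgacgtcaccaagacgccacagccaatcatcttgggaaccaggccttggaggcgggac
Gins3, chr8:95633359-95633558, plus strand: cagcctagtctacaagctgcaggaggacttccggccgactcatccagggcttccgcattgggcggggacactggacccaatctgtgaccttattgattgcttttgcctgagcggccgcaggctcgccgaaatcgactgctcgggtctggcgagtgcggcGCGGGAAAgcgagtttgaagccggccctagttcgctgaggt
Mcm3, chr1:20820265-20820294, minus strand: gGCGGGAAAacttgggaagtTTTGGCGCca
In Mcm6 and Mcm5 a pair of words overlaps head to head, so that the capitals run on as 1 block. The stretch of Cdc6, a licensing gene, runs from 149 to 120 bases before the transcript start used here, which lies 442 bases inside the gene as annotated, while the stretches of Mcm6, Mcm5 and Gins3 lie upstream of their genes and that of Mcm3 covers bases 19 to 48 of its transcript.
Cdc6, chr11:98908002-98908031, plus strand: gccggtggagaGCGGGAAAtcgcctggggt
For Rrm2 and Pcna, which had no E2F word of these letters in the window, the CCAAT box is in capitals, on the opposite strand in Pcna.
Rrm2, chr12:24708054-24708253, plus strand: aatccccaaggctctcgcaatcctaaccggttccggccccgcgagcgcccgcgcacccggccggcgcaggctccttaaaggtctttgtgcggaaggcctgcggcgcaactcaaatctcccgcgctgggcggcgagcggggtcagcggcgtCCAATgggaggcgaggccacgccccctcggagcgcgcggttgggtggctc
Pcna, chr2:132253181-132253380, minus strand: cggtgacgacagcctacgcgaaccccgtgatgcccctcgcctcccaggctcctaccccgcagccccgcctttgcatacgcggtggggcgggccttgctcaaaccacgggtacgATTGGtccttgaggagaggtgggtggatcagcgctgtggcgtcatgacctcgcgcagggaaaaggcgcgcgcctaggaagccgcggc
An E2F word stood in the window of 15 of the 39 matched genes (38.5%), against 704 of 27025 genes with a window in the table (2.6%). A CCAAT box stood in 25 of 39 (64.1%), against 41.1% of those genes. A match is a description of letters in a window and no evidence that a factor binds there.

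**Figure D2:**
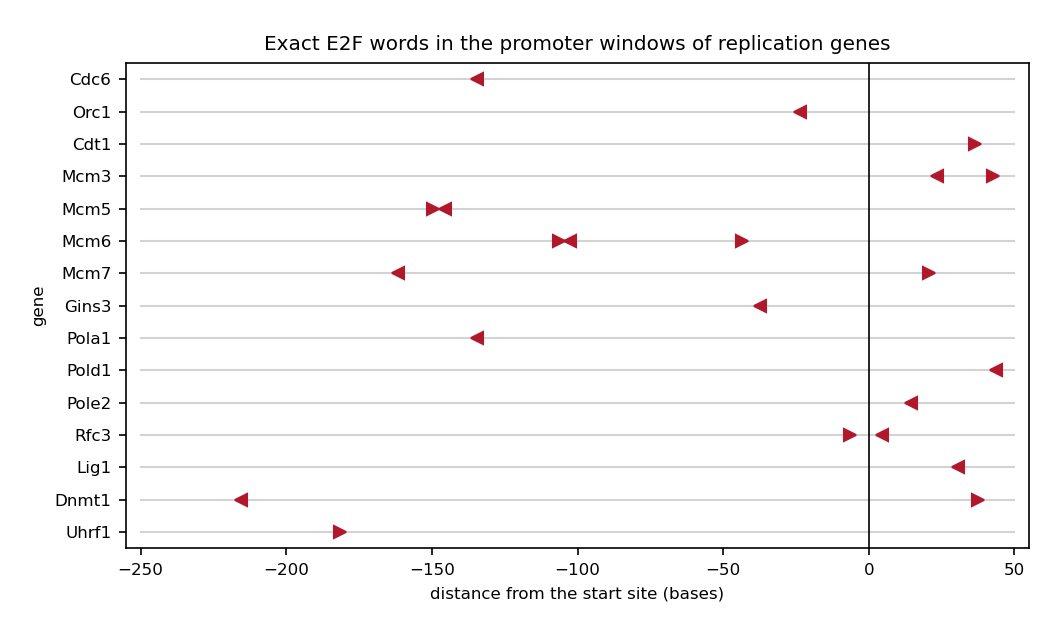
Positions of the exact E2F words in the promoter windows of the 15 replication genes that hold one, as distance in bases from the start site (vertical line). Arrowheads pointing right are words on the gene's strand and those pointing left are on the opposite strand; the words lie on both sides of the start.

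In licensing, 2 of 5 genes were called lower in each talc arm. Beside the counts of this and the later steps stand 4.52% of all genes called lower against vehicle and 3% in the estradiol arm. Groups did not overlap, with talc lower, in 12.6% of all genes against vehicle and in 12% in the estradiol arm. Cdc6, the loader of the Mcm ring, read 6.57, 6.81 and 6.62 in the talc arrays, against 7.33, 7.27 and 7.52 in vehicle. It read 6.51, 6.77 and 6.84 with talc plus estradiol, against 7.25, 7.36 and 7.39 with estradiol alone. Neither pair of groups overlapped, and Cdc6 fell by both comparisons (log2 change -0.70 ± 0.12, adjusted p = 0.000989, and -0.63 ± 0.12, adjusted p = 0.00348). Gmnn, the inhibitor of Cdt1, read 6.95, 7.11 and 6.92 with talc, against 7.59, 7.38 and 7.56 in vehicle. In the estradiol arm it read 6.91, 6.84 and 7.08 with talc plus estradiol, against 7.76, 7.58 and 7.58 with estradiol. Gmnn too was lower without overlap in both arms (-0.52 ± 0.11, adjusted p = 0.00586; -0.70 ± 0.11, adjusted p = 0.000756), so a licensing factor and a licensing inhibitor fell together. Orc6, a subunit of the origin recognition complex, had the smallest change of the step against vehicle, with 7.002, 7.34 and 7.16 in talc, against 7.18, 7.28 and 7.60 in vehicle arrays. These values overlapped (-0.19 ± 0.14, adjusted p = 0.541), and the estimate depended on the probe sets, at 0.077 with the brightest one and -0.44 with their median. Orc1, the largest subunit of that complex, and Cdt1, the partner of Cdc6, were not called in either arm (-0.34 and -0.31 for Orc1, -0.21 and -0.14 for Cdt1).

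Of the helicase genes, 10 of 12 were called lower against vehicle and 5 of 12 in the estradiol arm. All 6 genes of the Mcm2 to Mcm7 ring fell with talc against vehicle, with changes from -0.52 (Mcm2) to -0.73 (Mcm3). Against estradiol 5 of the 6 fell, and Mcm7 did not pass (-0.30 ± 0.10, adjusted p = 0.0944). Mcm3 read 9.34, 9.50 and 9.36 in talc arrays, against 10.11, 10.04 and 10.23 in vehicle arrays. With estradiol present it read 9.38, 9.44 and 9.42 in talc-treated cells, against 9.96, 10.12 and 10.06 without the particle. The 6 talc-treated arrays lay below the 6 of these controls, at 60.3% of the vehicle level and 64.4% of the estradiol level (-0.73 ± 0.091, adjusted p = 7.64e-05; -0.63 ± 0.091, adjusted p = 0.000373).

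Of the 6 genes for factors that turn the ring into a running helicase, 4 were called against vehicle and none in the estradiol arm, and none passed the interaction. Cdc45 had the largest fall of the step against vehicle, with 6.25, 6.17 and 6.02 in talc, against 6.77, 7.02 and 6.92 in vehicle arrays (-0.76 ± 0.14, adjusted p = 0.00184). With estradiol present Cdc45 read 6.58, 6.37 and 6.55 with talc, against 6.86, 6.77 and 6.94 without it. Those arrays did not overlap either, but the change did not pass (-0.36 ± 0.14, adjusted p = 0.145). Of the GINS subunits, Gins2 (-0.66 ± 0.11, adjusted p = 0.000879) and Gins4 (-0.43 ± 0.13, adjusted p = 0.0454) fell against vehicle, and none of the 4 was called in the estradiol arm. Gins4 is the weakest of these calls and passed in 8 of 26 alternative settings. Gins2 had the smallest p of the 47 genes for the interaction of talc with estradiol (0.38 ± 0.15, adjusted p = 0.71), which did not pass. Gins3 read 7.87, 7.97 and 7.94 in talc, against 8.04, 8.05 and 8.21 in vehicle arrays, lower by a small step without overlap and not called (-0.17 ± 0.093, adjusted p = 0.337). With its brightest probe set alone the estimate for Gins3 turned to 0.14. Mcm10, which helps start the helicase, fell against vehicle (-0.58 ± 0.13, adjusted p = 0.00733), and with its brightest probe set alone did not pass (-0.30, adjusted p = 0.294).

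**Figure D3:**
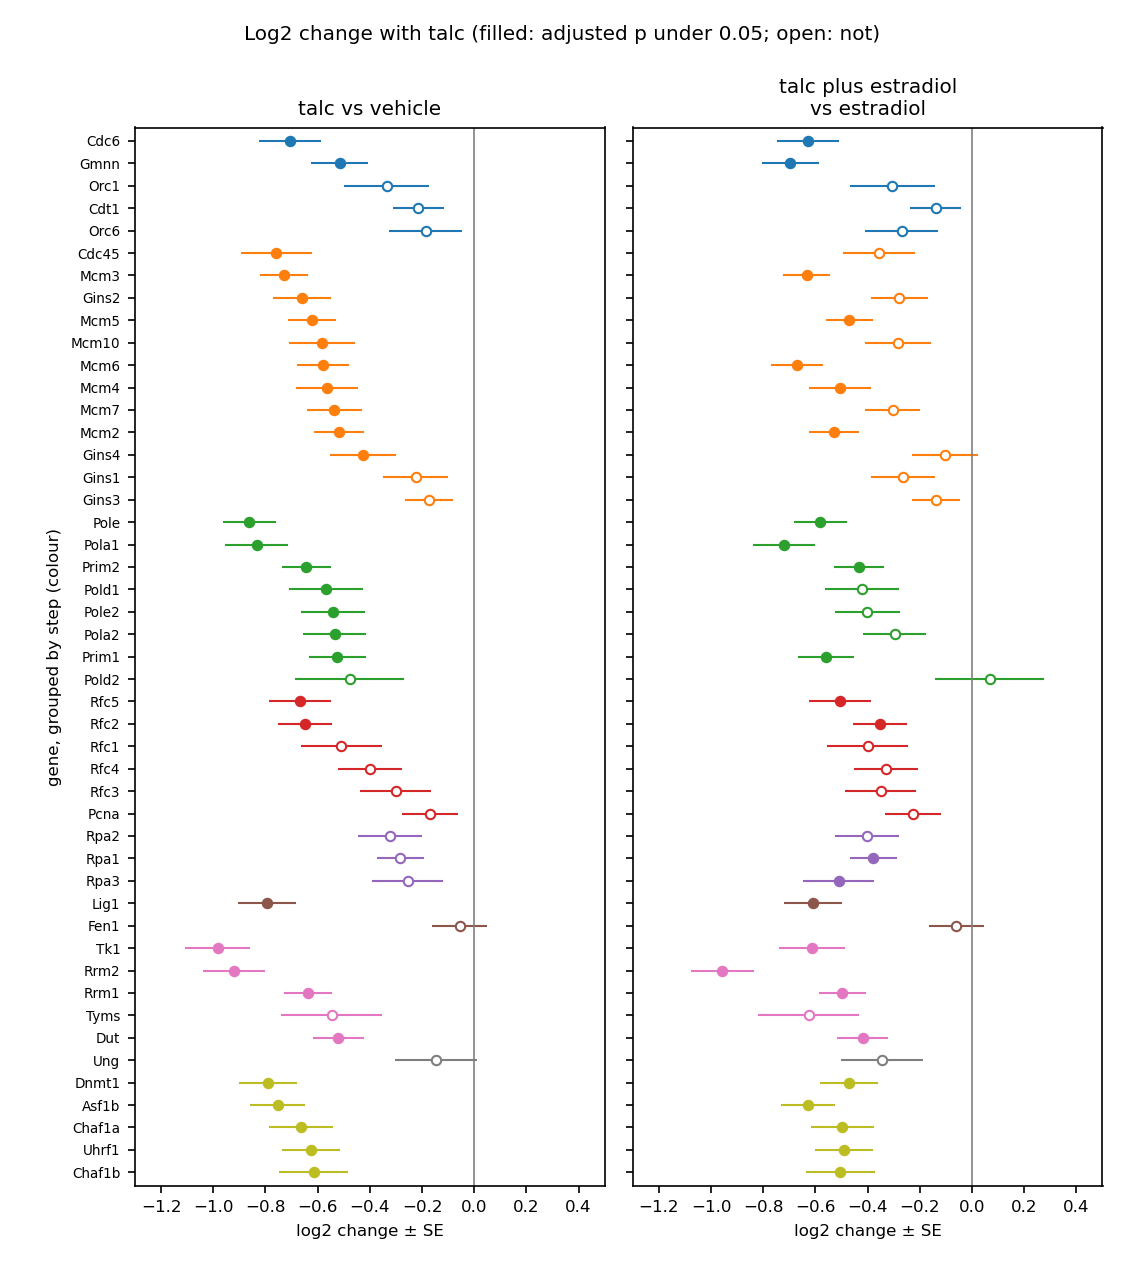
Log2 change of each of the 47 genes with talc, against vehicle (left) and in the estradiol arm (right); points are estimates, bars are ± 1 SE, and filled points have an adjusted p under 0.05. The 31 filled points on the left and 25 on the right lie below 0, and Pold2 in the estradiol arm (0.068) is the one estimate above 0.

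Among polymerases and primase, 7 of 8 genes fell with talc against vehicle and 4 of 8 in the estradiol arm. Pole, the catalytic subunit of the leading-strand polymerase epsilon, had the smallest adjusted p of the 47 against vehicle. It read 6.72, 6.67 and 6.70 in talc, against 7.41, 7.57 and 7.69 in vehicle arrays. With estradiol present it read 6.79, 6.92 and 6.95 with talc, against 7.44, 7.51 and 7.45 without. Talc arrays were close to one another and well under both controls (-0.86 ± 0.10, adjusted p = 4.7e-05; -0.58 ± 0.10, adjusted p = 0.00196). Pola1, the catalytic subunit of the strand-starting polymerase alpha, read 6.81, 6.74 and 6.59 in talc, against 7.52, 7.51 and 7.60 in vehicle arrays. It read 6.73, 7.01 and 6.92 with talc plus estradiol, against 7.69, 7.66 and 7.47 with estradiol. Pola1 thus fell without overlap in both arms (-0.83 ± 0.12, adjusted p = 0.00025; -0.72 ± 0.12, adjusted p = 0.00123). Both primase genes, Prim1 and Prim2, also fell in both arms, while Pola2, Pole2 and Pold1, the catalytic subunit of the lagging-strand polymerase delta, were called against vehicle only. Pole2 rests on its dimmer probe sets, since the brightest one alone changed by -0.13 (adjusted p = 0.741). The accessory delta subunit Pold2 had the widest spread of the step, with 7.55, 8.02 and 7.97 in talc, against 8.01, 8.37 and 8.60 in vehicle arrays. The groups overlapped, and the change did not pass (-0.48 ± 0.21, adjusted p = 0.207). Against estradiol its estimate was the one above 0 (0.068 ± 0.21), and it turned to -0.24 with the brightest probe set, to -0.23 with the median of probe sets and to -0.062 without estradiol replicate 1.

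In the clamp and its loader, Rfc2 and Rfc5 were called lower in both arms and the other 4 genes in neither, and differences between subunits were not tested. Rfc5, a small loader subunit, read 7.04, 6.99 and 7.20 in talc, against 7.51, 7.80 and 7.93 in vehicle arrays. It read 7.19, 7.24 and 7.39 with talc plus estradiol, against 7.78, 7.72 and 7.83 with estradiol. The groups did not overlap in either arm (-0.67 ± 0.12, adjusted p = 0.00153; -0.51 ± 0.12, adjusted p = 0.014). Rfc2, another small subunit, read 6.96, 7.17 and 6.96 in talc, against 7.59, 7.69 and 7.75 in vehicle arrays (-0.65 ± 0.10, adjusted p = 0.000599). In the estradiol arm it read 6.95, 7.08 and 7.27 with talc, against 7.45, 7.48 and 7.41 without (-0.35 ± 0.10, adjusted p = 0.047), again with no overlap. This call of Rfc2 in the estradiol arm passed in 9 of 26 alternative settings, and the uncalled Rfc3 and Rfc1 had estimates of -0.35 and -0.40 there. The large subunit Rfc1 and Rfc4 missed the threshold narrowly against vehicle (-0.51, adjusted p = 0.0517, and -0.40, adjusted p = 0.0543). Pcna, the clamp itself, read 9.93, 9.83 and 9.93 in talc, against 10.17, 9.91 and 10.11 in vehicle arrays. Its groups overlapped in both arms and it was not called (-0.17 ± 0.11, 95% interval -0.40 to 0.058; -0.23 ± 0.11, 95% interval -0.45 to 0.00090). Pcna is in wide use as a proliferation marker, and its estimate was -0.011 against vehicle and -0.043 in the estradiol arm with the brightest probe set alone.

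RPA, the complex that coats single-stranded DNA, had lower estimates for its 3 genes in both arms and few calls. None was called against vehicle, and Rpa1 and Rpa3 were called in the estradiol arm. These calls passed in 21 (Rpa1) and 18 (Rpa3) of 26 alternative settings. Rpa3, with 3 probe sets, changed by -0.51 in the estradiol arm (adjusted p = 0.0287). Rpa1, the DNA-binding large subunit, read 7.41, 7.31 and 7.31 with talc plus estradiol, against 7.67, 7.69 and 7.81 with estradiol (-0.38 ± 0.090, adjusted p = 0.0149). In the other arm it read 7.53, 7.43 and 7.26 with talc, against 7.67, 7.64 and 7.76 with vehicle, lower without overlap but not past the threshold (-0.28 ± 0.090, adjusted p = 0.063). Rpa2, the middle subunit, read 7.39, 7.47 and 7.52 in talc, against 7.60, 7.90 and 7.85 in vehicle arrays, also without overlap and not called (-0.32 ± 0.12, adjusted p = 0.133). The difference between the arms did not pass for Rpa1 (interaction -0.10 ± 0.13, adjusted p = 0.939) or Rpa3 (-0.26 ± 0.19, adjusted p = 0.887).

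Of the enzymes that finish Okazaki fragments, Lig1 was called in both arms and Fen1 in neither. Lig1, the ligase that seals them, read 7.34, 7.63 and 7.38 in talc, against 8.26, 8.25 and 8.21 in vehicle arrays. It read 7.61, 7.44 and 7.48 with talc plus estradiol, against 8.05, 8.11 and 8.20 with estradiol. Lig1 fell in both arms without overlap (-0.79 ± 0.11, adjusted p = 0.000213; -0.61 ± 0.11, adjusted p = 0.00261). Fen1, the nuclease that trims the flaps, read 6.67, 6.51 and 6.64 in talc, against 6.56, 6.59 and 6.83 in vehicle arrays. Talc and control arrays of Fen1 overlapped in both arms (-0.055 ± 0.11, 95% interval -0.28 to 0.17; -0.060 ± 0.11, 95% interval -0.28 to 0.16), and the sign turned when vehicle replicate 3 (0.030) or estradiol replicate 3 (0.017) was left out. The choice of probe sets moved Fen1 further, without a call: its estimates with the brightest one alone were -0.34 against vehicle (adjusted p = 0.307) and -0.57 in the estradiol arm (adjusted p = 0.0716), both below those intervals, and with the median -0.20 and -0.040. The 95% interval of Lig1 against vehicle was -1.03 to -0.56; the difference between the genes was not tested.

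**Figure D4:**
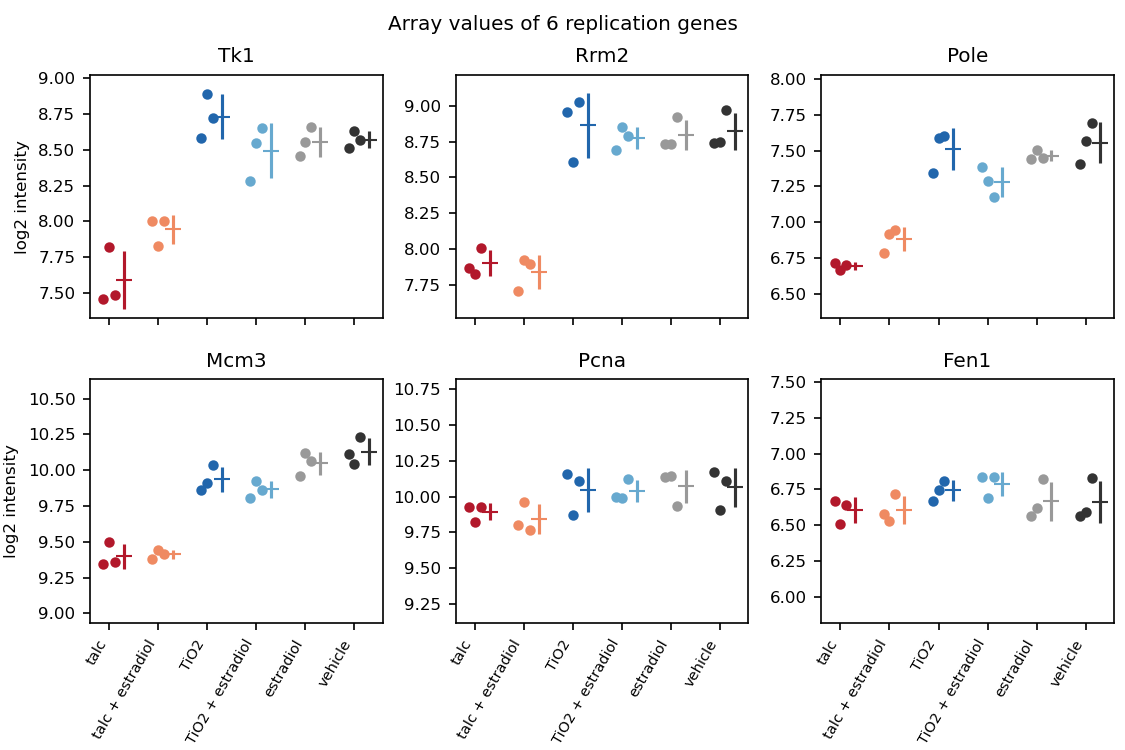
Log2 intensity of Tk1, Rrm2, Pole, Mcm3, Pcna and Fen1 in the 6 groups; points are single arrays, and the cross beside them is the group mean ± SD (n = 3). The vertical axes span the same number of units in each panel but start at different levels and not at 0. In Tk1, Rrm2, Pole and Mcm3 the talc and talc plus estradiol arrays lie below those of the other 4 groups, while in Pcna and Fen1 both talc groups overlap with their controls.

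Nucleotide supply held the largest fall in each arm, Tk1 against vehicle and Rrm2 in the estradiol arm. Tk1, the thymidine kinase that salvages thymidine in S phase, read 7.45, 7.82 and 7.49 in talc, against 8.51, 8.63 and 8.57 in vehicle arrays. It read 8.004, 7.82 and 8.001 with talc plus estradiol, against 8.45, 8.55 and 8.66 with estradiol. Talc left Tk1 at 50.6% of the vehicle level and at 65.4% of the estradiol level (-0.98 ± 0.13, adjusted p = 8.9e-05; -0.61 ± 0.13, adjusted p = 0.00592). Rrm2, the small and cell-cycle regulated subunit of ribonucleotide reductase, read 7.87, 7.83 and 8.01 in talc, against 8.74, 8.75 and 8.97 in vehicle arrays. With estradiol present it read 7.70, 7.92 and 7.89 with talc, against 8.73, 8.73 and 8.92 without. It fell to 52.8% of vehicle and 51.5% of estradiol, with no overlap (-0.92 ± 0.12, adjusted p = 0.000106; -0.96 ± 0.12, adjusted p = 0.000128). Its partner Rrm1, the large subunit, fell in both arms as well (-0.64 ± 0.091, adjusted p = 0.00025; -0.50 ± 0.091, adjusted p = 0.00266). Dut, which clears dUTP and supplies the substrate of thymidylate synthase, read 6.81, 7.10 and 7.005 in talc, against 7.55, 7.39 and 7.54 in vehicle arrays, and 7.06, 7.06 and 6.94 with talc plus estradiol, against 7.44, 7.45 and 7.44 with estradiol. It was lower without overlap in both arms (-0.52 ± 0.10, adjusted p = 0.00244; -0.42 ± 0.10, adjusted p = 0.0138). Tyms, thymidylate synthase, was lower without overlap in both arms. It did not pass in either on its mean (-0.55 ± 0.19, adjusted p = 0.101, and -0.63 in the estradiol arm, adjusted p = 0.0613). Against vehicle Tyms passed with the brightest probe set alone (-1.15, adjusted p = 0.00319), and the median of its probe sets gave -1.10. In the estradiol arm these 2 settings gave -0.84 and -0.41. Ung, the glycosylase that removes uracil from DNA, read 5.73, 5.78 and 5.51 in talc, against 5.60, 5.96 and 5.91 in vehicle arrays, with overlap and no call (-0.15 ± 0.16, adjusted p = 0.705; 0.31 with the brightest probe set).

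The genes that copy chromatin behind the fork were the one step of more than 1 gene in which each member was called in both talc arms, 5 of 5. Dnmt1, which copies CpG methylation, read 9.02, 9.20 and 9.10 in talc, against 9.76, 9.91 and 10.02 in vehicle arrays. It read 9.34, 9.40 and 9.30 with talc plus estradiol, against 9.72, 9.95 and 9.77 with estradiol. Neither comparison overlapped (-0.79 ± 0.11, adjusted p = 0.00021; -0.47 ± 0.11, adjusted p = 0.0139). Uhrf1, which recruits Dnmt1 to half-methylated sites, fell with it (-0.63 ± 0.11 and -0.49 ± 0.11, adjusted p = 0.0017 and 0.0123). Asf1b, a chaperone of histones H3 and H4, read 8.62, 8.61 and 8.64 in talc, against 9.40, 9.49 and 9.25 in vehicle arrays. It read 8.84, 8.67 and 8.74 with talc plus estradiol, against 9.34, 9.45 and 9.34 with estradiol, and its groups did not overlap (-0.75 ± 0.10, adjusted p = 0.000175; -0.63 ± 0.10, adjusted p = 0.0012). Chaf1b, a subunit of the chromatin assembly factor CAF-1, had the smallest change of the step against vehicle, with 7.17, 7.40 and 7.26 in talc, against 7.51, 8.09 and 8.07 in vehicle arrays (-0.62 ± 0.13, adjusted p = 0.00697). Vehicle replicate 1 of Chaf1b lay below the other 2 and still above the talc arrays. Chaf1a, the large CAF-1 subunit, changed by -0.66 ± 0.12 and -0.50 ± 0.12 in the 2 arms. In the estradiol arm Chaf1b, Chaf1a, Uhrf1 and Dnmt1 passed in 20, 22, 23 and 24 of 26 alternative settings, and Asf1b in each. With talc plus estradiol, 3 of the 5 were called lower against vehicle, where 3.22% of all genes were. Against TiO2 plus estradiol 3 were called lower, where 2.87% of all genes were.

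No change of these genes was called with TiO2. Against vehicle none of the 47 was called by limma and none had an unadjusted p under 0.05, where 8.16% of all genes had one and 0% were called. The median change was 0.025, and the 95% intervals of the 47 reached at most from -0.50 (Rfc1) to 0.62 (Pold2). Tk1 read 8.58, 8.89 and 8.72 with TiO2, against 8.51, 8.63 and 8.57 with vehicle, and its change was 0.16 ± 0.13. Rrm2 read 8.96, 8.60 and 9.03 with TiO2 (0.041 ± 0.12 against vehicle). With estradiol present, none was called either, against 0.00433% of all genes in either direction and 0% called lower, and 5 had an unadjusted p under 0.05 (Chaf1a, Pola1, Prim2, Pola2 and Chaf1b), where 8.91% of all genes had one. The lowest of these was Chaf1a (-0.43 ± 0.12, adjusted p = 0.398). The median change in this arm was -0.063, and 35 of the 47 estimates were below 0, against 53.1% of all genes. The arrays of TiO2 plus estradiol had lower upper quartiles of intensity than the other 15, as given below.

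Set directly against TiO2, the particle at the same mass per well, talc lowered 34 of the 47 genes without estradiol (median -0.57, background 5.35% of genes called lower) and 22 of the 47 with it (median -0.36, background 2.87%). These comparisons share the talc arrays with the ones above. The TiO2 plus estradiol arrays, the reference of the 22, had upper quartiles of intensity of 222.2 to 233.5, against 237.9 to 249.1 in the other 15. The difference between the counts of 34 and 22 was not tested. Called falls ran from -0.39 (Rpa1) to -1.14 (Tk1) without estradiol, and from -0.35 (Mcm7) to -0.94 (Rrm2) with it. The Tk1 arrays read 7.45, 7.82 and 7.49 with talc, against 8.58, 8.89 and 8.72 with TiO2 (-1.14 ± 0.13, adjusted p = 2.73e-05). The count of 22 dropped to 13 without talc plus estradiol replicate 1, and to 7 when the spread was estimated from those 2 groups alone. The shares of all genes called at these settings are not given here. Of the 47 genes, 18 were called in each of the 4 comparisons of talc with a control or with TiO2 in the same arm. These 4 share arrays, and the share of all genes called in all 4 is not given here.

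**Figure D5:**
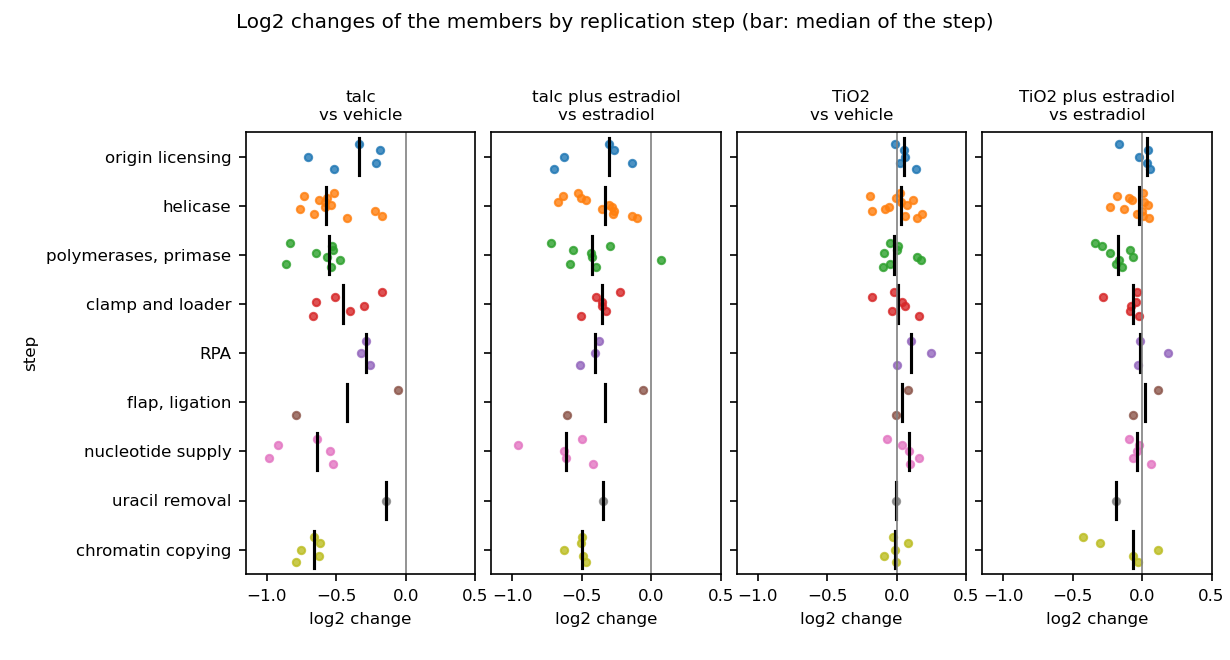
Log2 changes of the 47 genes by replication step (rows) for talc and TiO2, each against its control without and with estradiol (panels); points are genes and the bar is the median of the step. With talc the step medians against vehicle lie between -0.15 and -0.66. With TiO2 the points scatter around 0 against vehicle, and in the estradiol arm 35 of the 47 lie below 0 (median -0.063).

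Estradiol alone called none of the 47 against vehicle, as for all genes (0%), and 1 gene, Rfc2, had an unadjusted p under 0.05 (-0.23 ± 0.10, adjusted p = 0.998), against 4.87% of all genes. The median change was -0.026. Added to talc, estradiol called none (0% of all genes), with a median of 0.050. In that comparison 16 genes had talc plus estradiol arrays wholly above the talc arrays, against 7.46% of all genes. An unadjusted p under 0.05 was reached by 6 genes (Gins2, Tk1, Cdc45, Chaf1a, Pold2 and Dnmt1), against 6.58% of all genes. Gins2 read 7.86, 7.74 and 7.82 with talc plus estradiol, against 7.23, 7.58 and 7.59 with talc (0.34 ± 0.11, adjusted p = 0.706). Tk1 read 8.004, 7.82 and 8.001 with talc plus estradiol, against 7.45, 7.82 and 7.49 with talc, and likewise did not pass (0.35 ± 0.13, adjusted p = 0.706).

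Added to TiO2, estradiol called none of the 47, against 0.00866% of all genes in either direction and 0.00433% called lower. The median change was -0.12, 39 of the 47 estimates were below 0, against 52% of all genes, and an unadjusted p under 0.05 was seen for 7, against 13% of all genes. The 3 TiO2 plus estradiol arrays had upper quartiles of intensity of 222.2 to 233.5, below the 237.9 to 249.1 of the other 15 arrays, and after quantile normalization the median was -0.066. Neither interaction called any of the 47. The interaction of talc with estradiol had a median of 0.11 and an unadjusted p under 0.05 for Gins2 alone (6.32% of all genes). The interaction of TiO2 with estradiol had a median of -0.081 and such a p for Chaf1a alone (-0.40 ± 0.17, adjusted p = 0.588; 8.05% of all genes). Against vehicle, talc plus estradiol lowered 25 of the 47 (median -0.45, background 3.22%). The count was 15 with the median of probe sets per gene and 16 with the arrays of those groups alone. The shares of all genes called at these settings are not given here. TiO2 plus estradiol called none against vehicle (median -0.078, background 0%). In that comparison 10 genes had an unadjusted p under 0.05, where 12.6% of all genes had one.

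Genes of the same pathways outside the 47 were also called, mostly lower. Of 79 further genes of licensing, forks, nucleotide synthesis and chromatin copying, 19 fell and 4 rose with talc against vehicle (median -0.14), and 17 fell and 5 rose in the estradiol arm. Over all genes 4.52% fell and 3.94% rose against vehicle, and 3% fell and 4.13% rose in the estradiol arm. These further lists, too, were chosen with earlier results of these data known. Among 13 further genes of licensing and origin firing, 5 fell and none rose, led by Ticrr (-1.05 ± 0.17, adjusted p = 0.000575), the firing factor also called treslin. Topbp1, its partner at origins, Dbf4, the activator of the Cdc7 kinase, and Mtbp, another treslin partner, also fell (-0.81, -0.80 and -0.62). Among 25 further fork genes 8 fell and none rose. Top2a, the topoisomerase that untangles copied DNA, changed by -0.99 ± 0.13 (adjusted p = 0.000135). Chtf18 and Dscc1, parts of an alternative clamp loader, fell (-0.96 and -0.66), as did Wdhd1, which links polymerase alpha to the helicase (-0.85). Among 11 further chromatin-copying genes 3 fell and none rose, namely Mms22l and Tonsl, which act together at stalled forks, and Cbx5, a heterochromatin protein (-0.62, -0.57 and -0.51).

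The wider nucleotide enzymes went both ways. Of 30, 3 fell and 5 rose with talc in the estradiol arm, where 3% of all genes fell and 4.13% rose. Against vehicle 3 fell and 4 rose, where 4.52% of all genes fell and 3.94% rose. Those that fell were Dck, the deoxycytidine kinase of salvage (-0.71 ± 0.12, adjusted p = 0.000824), Dtymk, which phosphorylates thymidylate (-0.52 ± 0.13, adjusted p = 0.0147), and Shmt2, which supplies one-carbon units in mitochondria (-0.59 ± 0.10, adjusted p = 0.00136). Those that rose were Impdh1, which leads towards guanine nucleotides (0.62 ± 0.11, adjusted p = 0.00153), and Gart, Adsl and Atic, enzymes of the new synthesis of purines (0.44, 0.38 and 0.33). Impdh1 had a mean of 7.67 ± 0.0059 in talc cells and 7.05 ± 0.16 in vehicle cells (SD, n = 3 each). Dck had 7.37 ± 0.10 in talc cells and 8.09 ± 0.022 in vehicle cells.

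Of 19 regulators of the passage from G1 into S phase, 10 fell and 2 rose with talc against vehicle. E2f8 and E2f7, repressor members of the E2F family, fell (-1.31 and -0.72), and so did Ccne1, the cyclin E1 that drives S phase entry (-0.80), and Rbl1, the pocket protein p107 (-0.78). The 2 that rose were Cdkn1a, the cyclin-dependent kinase inhibitor p21 (0.64 ± 0.14, adjusted p = 0.00815), and E2f5, a repressor E2F (0.59 ± 0.17, adjusted p = 0.0326). Against estradiol 9 of the 19 fell and 1 rose. The shares of all genes were 4.52% lower and 3.94% higher against vehicle, and 3% lower and 4.13% higher against estradiol. The part of Cdkn1a or of any E2F in the falls of the replication genes was not tested.

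Falls with talc were seen in genes with and without the promoter words, and the difference was not tested. The 15 genes with an E2F word had a median change of -0.58 with talc against vehicle and 11 of them were called lower, and the 24 matched genes without one had a median of -0.52 and 13 were called. In the estradiol arm the medians were -0.47 (8 called) with a word and -0.41 (12 called) without. For CCAAT the medians against vehicle were -0.54 both with (15 of 25 called) and without (9 of 14 called). Mcm6, with 3 E2F words, changed by -0.58, and Mcm5, with a pair, by -0.62, while Gins3, whose word lies close to the start, was not called. Tk1 and Rrm2, which fell most against vehicle, had none of the exact E2F words in their windows.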

How the data were processed

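The deposited values are probe-set intensities, 1 for each array, and are linear, spanning 1.458 to 17256. RMA is named, with no role or version, per the submitters' processing notes; probe level and the return to a linear scale are not given in the sources used here. Here log2 was taken of the deposited intensity. Of 269751 probe sets, 233753 carried a single symbol, 5106 several and 30892 none in the platform annotation; the reference's synonyms updated 2247 symbols. Single-symbol probe sets were averaged into 23102 genes (median 8 per gene), so exon changes are averaged and antisense or overlapping genes are told apart only as the annotation does.

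One mean per group was fitted to 18 arrays with limma 3.58.1 (lmFit, eBayes; R 4.3.3, with version 1.17.8 of data.table), with 12 residual and 4.57 prior degrees of freedom and 13 comparisons. The number of arrays limits the precision (median SE 0.15). The fit was tested on simulated data for talc against vehicle. Members and lists were chosen with earlier results of these data known. Named genes were, in each step, the largest and smallest changes with talc, and up to 4 called genes of each other list plus those called the other way. Alternatives were probe-set summaries, single probe sets, a filter, normalizations, variance models, fewer arrays and leaving out each array. Promoters came from RefSeq GRCm38.p6. A few genes of the other lists are not reported here.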

Additional observations from a re-analysis of the deposited data

How the results depend on the processing

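The precision is limited by 3 arrays per group, and the values of some genes by the choice of probe sets. No paired analysis was possible because the labels number the arrays through the groups and pair none. Leaving out 1 array at a time gave 29 to 32 called genes for talc against vehicle, 18 to 27 for talc plus estradiol against estradiol, 31 to 34 for talc against TiO2, 13 to 23 for talc plus estradiol against TiO2 plus estradiol, 19 to 27 for talc plus estradiol against vehicle, and 0 to 0 for the other 8 comparisons. With the median of probe sets, 14 were called for talc plus estradiol against estradiol and 15 against vehicle. With only the arrays of the groups compared, 7 were called for talc plus estradiol against TiO2 plus estradiol and 16 against vehicle. The shares of all genes called at these settings, and with 1 array left out, are not given here. Each of the 756 probe sets was also tested on its own, and the calls were all lower. They were 147 for talc against vehicle, 69 for talc plus estradiol against estradiol and 149 for talc against TiO2. They were 86 for talc plus estradiol against TiO2 plus estradiol and 60 for talc plus estradiol against vehicle. The share of all probe sets called lower at this setting is not given here, so these probe-set counts have no background to be read against. The other settings kept the counts of called genes within 1.5 times. The causes of the moved counts were not tested. Some settings bring a smaller number of arrays or a larger number of tests.

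Of the 31 genes called against vehicle, 24 stayed called in each of 26 alternatives, and of the 25 in the estradiol arm, 9 did. None of either changed sign. Of the 26 alternatives 18 leave out 1 array. Where that array is of a group not compared, the estimate stays the same and only the spread is estimated anew. The 26 are therefore not independent checks. Uncalled genes changed sign in 8 cases. With the brightest probe set and talc against vehicle, the changes were 0.14 for Gins3, 0.077 for Orc6 and 0.31 for Ung. Pold2 in the estradiol arm gave -0.24 with the brightest probe set and -0.23 with the median, against 0.068; leaving out 1 array gave -0.062 (without estradiol replicate 1) to 0.17. Leaving out 1 array gave Fen1 -0.11 to 0.030 for talc against vehicle, the highest without vehicle replicate 3, and -0.11 to 0.017 for the estradiol arm, the highest without estradiol replicate 3. With the brightest probe set Fen1 gave -0.34 and -0.57 in these comparisons, and with the median -0.20 and -0.040; Orc6 gave -0.44 against vehicle with the median.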
